A study of Arabidopsis thaliana with 18 samples.

Results

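In Arabidopsis thaliana, ecotype Ws-2, roots and shoots were compared in how their transcripts answered potassium starvation. The measure was a difference between responses, taken for each probe set on the log2 scale: potassium-starved minus control in roots, minus potassium-starved minus control in shoots. It uses 12 of the 18 arrays of the series, and was tested in 11774 of 22746 probe sets. A positive difference means that starvation moved a transcript further up, or less far down, in roots than in shoots, and a negative one the reverse.

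The 4 groups were potassium-starved roots, control roots, potassium-starved shoots and control shoots, with 3 samples in each. All came from stock N1601 with no transgene or mutation named, were at growth stage 3.90, and pooled 40 to 50 plants. Starved plants received Murashige and Skoog solution at 1/10 strength from which potassium was left out, root samples held the whole root system, and the labels give neither the control medium nor the length of treatment. The remaining 6 arrays came from roots and shoots given 2 mM caesium, a competitor of potassium for uptake, and are quoted below as values alone. Replicates are numbered in the labels, which do not state whether each was sown separately. The p-values therefore rest on the scatter among these samples, which may be technical.

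Potassium is the main cation of plant cells, where it balances charge, drives turgor and activates many enzymes. Roots take it up through channels and high-affinity transporters, the xylem carries it to the leaves, and the phloem returns part of it to the roots. Roots therefore meet a loss of external potassium first, while shoots lose it later and show the known signs of deficiency, such as early ageing of old leaves and poor export of sugar. The classic genes of uptake and of low-potassium signalling could not be followed here. Of 27 listed potassium transporters 2 had a named probe set and 0 were tested, and of 12 listed signalling genes 0 had one.

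Each array gave a signal, a brightness scaled by the authors to a common mean, and its median lay between 33.0 and 43.6 on the 12 arrays. Across probe sets, r was 0.934 to 0.977 for 2 arrays of the same group and 0.565 to 0.722 for a root array against a shoot array. Of 12 green-tissue markers 6 had a probe set, and their summed signal lay between 198.3 and 300.9 in starved roots and between 137 and 253.6 in control roots, against 6558 to 9580 in starved shoots and 12420 to 13460 in control shoots. Of 14 root markers 5 had a probe set, with sums of 2483 to 3667 in starved roots, 2142 to 3014 in control roots, 80.7 to 938.5 in starved shoots and 204 to 1254 in control shoots. The upper values in shoots came from PYK10, a root beta-glucosidase, while the root hair expansins EXPA7 and EXPA18 stayed at 30.1 or less there. The markers thus went with the organ labels. In whole organs, fewer cells of a type and less RNA per cell cannot be told apart. The scanner's background was lower for starved roots, 65.3 ± 7.48, than for control roots, 77.0 ± 1.89, and near equal for starved shoots, 71.4 ± 4.91, and control shoots, 71.5 ± 6.15 (SD, n = 3 each).

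Starvation moved far more transcripts in shoots than in roots, and most organ differences lay in probe sets that passed in shoots. It passed the threshold, an adjusted p under 0.05 in limma, in 794 probe sets (6.74% of those tested), of which 582 differed 2-fold or more and 403 carried a gene name. The change was higher in roots in 350 (2.97%) and lower in roots in 444 (3.77%). Within roots 33 probe sets passed (0.28%), 31 up (0.263%) and 2 down (0.017%), and within shoots 3635 passed (30.9%), 1623 up (13.8%) and 2012 down (17.1%). The share that moved 2-fold or more in either direction was 0.9% in roots and 9.77% in shoots, whether or not they passed. The median SD between replicates on the log2 scale was 0.195 in roots and 0.244 in shoots, and its part in these counts was not tested.

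The count of organ differences depended on single arrays. It fell by more than 1.5 times without starved root replicate 1 (466, the array titled as a repeat), starved root replicate 3 (331), control root replicate 1 (500), control root replicate 3 (490), control shoot replicate 1 (480) or control shoot replicate 3 (432). With the scanner background as a term in the fit it was 215. The 33 calls within roots were as sensitive. They were 6 without starved root replicate 2, 7 without starved root replicate 3, 9, 10 and 21 when control root replicate 1, 2 or 3 was left out, and 19 when control shoot replicate 1 was. They were 1 with the scanner background as a term and 954 with array weights, while the 3635 calls within shoots lay between 2416, without control shoot replicate 3, and 3546 in the fits that left out 1 array. In roots the scanner background was 60.97 to 73.96 on starved and 75.72 to 79.15 on control arrays, without overlap. Background and starvation therefore cannot be told apart in roots, and the part of the scanner background in the result was not tested further.

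**Figure D1:**
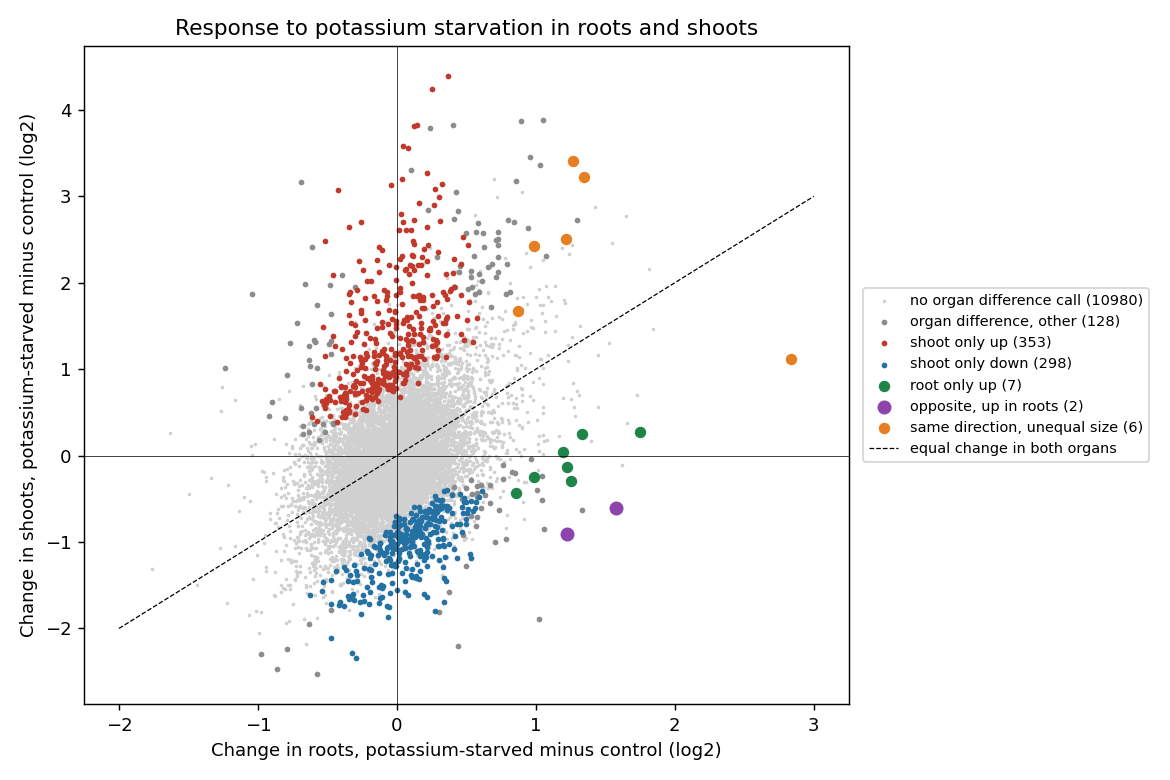
Log2 change under potassium starvation in roots (horizontal axis) and shoots (vertical axis), 1 point for each of 11774 probe sets, coloured by class, with the number of probe sets in the legend. The 353 shoot-only rises and 298 shoot-only falls form upright bands near a root change of 0, and the 7 root-only and 2 opposite probe sets lie to the right, between root changes of 0.86 and 1.75.

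The 794 probe sets were sorted by which organ answered. An answer in 1 organ was called where that organ passed, the other did not, and the 95% interval of the other lay within a log2 change of -1 to 1. Shoot-only answers made up 651 probe sets, 353 up (3% of those tested) and 298 down (2.53%). Root-only answers made up 7, all up (0.0595%), and 0 were down. Opposite answers that passed in both organs were 2, both up in roots and down in shoots (0.017%), and 0 ran the other way. The direction of these small classes was not stable: with array weights root-only answers were 64 up and 77 down and opposite answers 24 up and 26 down in roots, and with no filter root-only answers were 15 up and 26 down. In 6 probe sets both organs passed in the same direction with unequal size. In 94 the shoot passed while the interval in roots reached beyond the bound, and in 34 neither organ passed by itself.

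A minority of the probe sets that answered in shoots had an organ difference call, although their typical change was smaller in roots. Of the 3635 probe sets that passed there, 2882 (79.3%) had no such call, which does not show that the organs acted alike, since the median SE of the difference was 0.267. Of the same 3635, 2641 (72.7%) moved in the same direction in roots, against 62.9% of all probe sets tested. Those that rose in shoots had a median log2 change of 0.16 in roots and 0.85 in shoots. Those that fell had a median of -0.17 in roots and -0.76 in shoots. Across all probe sets, which are not independent replicates, the changes in the 2 organs correlated with r = 0.396. Of the 33 probe sets that passed in roots, 18 passed in shoots in the same direction, 2 in the opposite direction and 13 did not pass.

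AT4G33666 was the gene with a name that went opposite ways. Its signal was 289.8, 333.6 and 323.3 in starved roots, against 80.0, 88.7 and 120.9 in control roots. In starved shoots it was 307.3, 395.2 and 247.7, against 523.7, 424.3 and 499.4 in control shoots. The starved and control arrays did not overlap in either organ, and the 2 organs reached almost the same level under starvation, with means of 315.6 in starved roots and 316.7 in starved shoots. The log2 change was 1.57 in roots (SE 0.187, adjusted p = 0.00365 in limma) and -0.60 in shoots (SE 0.187, adjusted p = 0.0261), and the organ difference 2.18 (SE 0.264, adjusted p = 0.000519). Like other genes printed below by locus number alone, it carries no description in the annotation used here, so no role is given.

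The other opposite probe set, 260287_at, has no gene name in that annotation. Its signal was 736.2, 772.5 and 821.5 in starved roots, against 327.9, 274.8 and 375.8 in control roots, and 195.2, 265.8 and 389.6 in starved shoots, against 470.0, 656.9 and 474.3 in control shoots. All 3 starved arrays lay above the controls in roots and below them in shoots. The organ difference was 2.13 (SE 0.311, adjusted p = 0.00188 in limma), from 1.22 in roots and -0.91 in shoots. Groups that do not overlap were common, at 22.3% of all probe sets in roots and 42.9% in shoots. Without control shoot replicate 1 no probe set passed as opposite, and 9 of the other 11 fits that each left out 1 array gave 1 or 3 in place of 2.

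Root-only answers were 7 rises, 4 of them in named genes. ASPGB1 encodes an asparaginase, which frees ammonium from asparagine, a nitrogen carrier between organs. It had signals of 478.3, 704.6 and 723.8 in starved roots, against 179.9, 128.9 and 228.6 in control roots. In shoots it was low, with 29.1, 70.7 and 24.2 in starved shoots and 31.0, 23.3 and 32.6 in control shoots. The root groups stood apart and the shoot groups overlapped. The log2 change was 1.75 in roots (SE 0.276, adjusted p = 0.0159 in limma) and 0.27 in shoots (adjusted p = 0.482), with an organ difference of 1.48 (adjusted p = 0.0383). The call was lost with a pseudocount of 1, no filter, median centring, quantile normalization or the scanner background as a term. It passed in 4 of the 12 fits that each left out 1 array, those without starved root replicate 1, control root replicate 3, starved shoot replicate 2 or control shoot replicate 2, and had an adjusted p of up to 0.0997 in the others.

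ATL8 belongs to the ATL family of RING ubiquitin ligases, which mark proteins for breakdown. Its signal was 339.0, 252.0 and 240.6 in starved roots, against 121.5, 89.4 and 115.6 in control roots, and 37.6, 62.7 and 44.3 in starved shoots, against 57.3, 62.6 and 42.2 in control shoots. The root groups did not overlap, the shoot groups did, and the organ difference was 1.36 (SE 0.275, adjusted p = 0.0125 in limma). AT5G38820 gave 280.6, 236.9 and 223.8 in starved roots, against 112.4, 87.1 and 96.6 in control roots, and between 67.7 and 84.0 in starved shoots, against 61.5 to 82.3 in control shoots. It thus stood apart in roots alone, with an organ difference of 1.16 (adjusted p = 0.00912).

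AT5G62350 was the most strongly expressed of the 4 in shoots. Its signal was 1035.4, 936.6 and 1111.2 in starved roots, against 453.2, 504.3 and 324.9 in control roots, and 1371.7, 1063.8 and 1427.3 in starved shoots, against 1270.1, 1784.6 and 1720.8 in control shoots. Under starvation the root level came closer to the shoot level, and the organ difference was 1.55 (SE 0.275, adjusted p = 0.00593 in limma). The unnamed probe sets 259544_at, 261211_at and 267238_at rose in roots by 0.98, 1.33 and 0.86 on the log2 scale, with shoot changes of -0.24, 0.25 and -0.43. The first lost its call without starved root replicate 3, and the second passed in 4 of the 12 fits that each left out 1 array. The shoot fall of 267238_at just missed the threshold (adjusted p = 0.0564 in limma), and its starved and control shoots did not overlap. The number of root-only answers was small and moved with single arrays: 1 without starved root replicate 2 or 3, 2 without control root replicate 1 or 2, 3 without control shoot replicate 1, and 4 without control root replicate 3 or control shoot replicate 3.

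**Figure D2:**
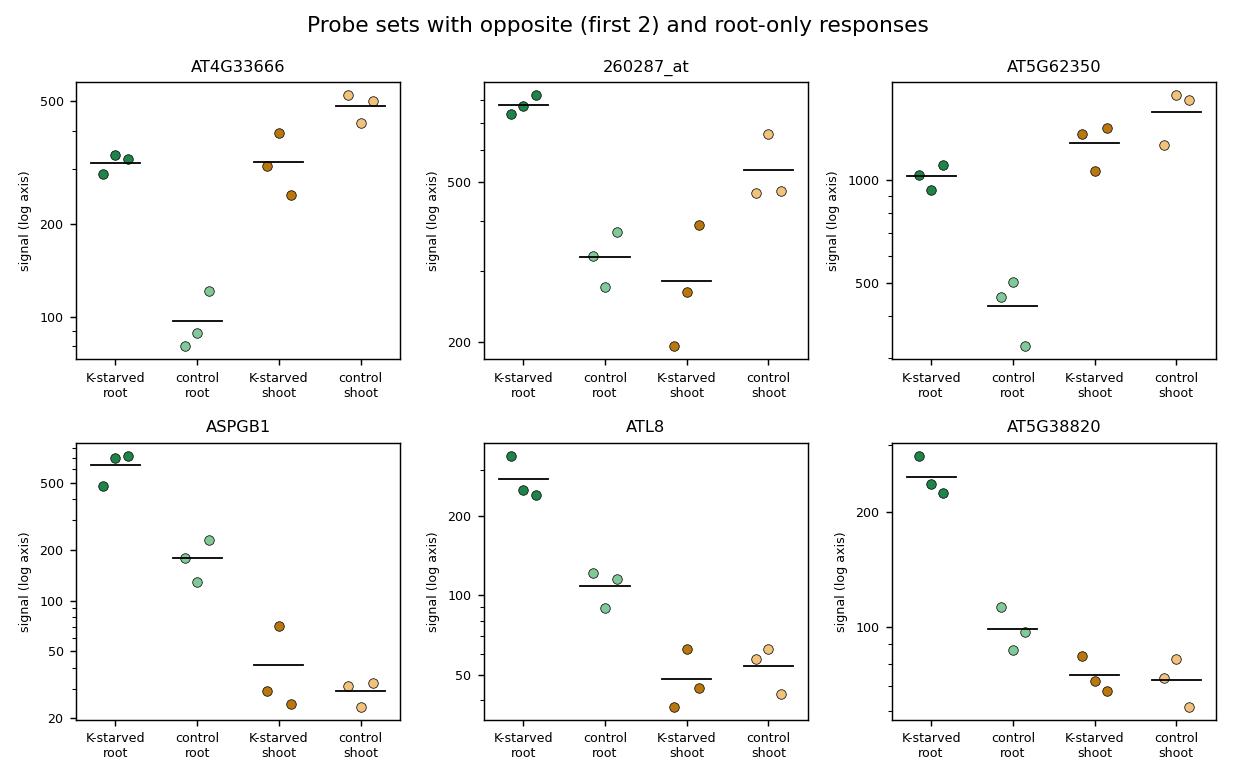
Signal on each array (points, logarithmic axis) and group mean (bars) in potassium-starved roots, control roots, potassium-starved shoots and control shoots. AT4G33666 and 260287_at are higher in starved than in control roots and lower in starved than in control shoots; the 4 root-only genes differ in roots, while their shoot groups overlap.

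The filter bears on what can be seen here. A probe set was tested only where its mean signal was above the 40th percentile in both organs, a floor of 28.1 in roots and 27 in shoots, over starved and control arrays together, so a single group could still lie below it. That was so, for a group of either organ, in 39 of the 353 shoot-only rises and 31 of the 298 falls. Where a root group lay below the floor, an absent root call may be an absent signal. Where control shoots did, as for SAL2, CML38 and UGT76B1 below, the probe set passed the shoot filter through its starved arrays. Genes expressed in 1 organ were fitted apart, without the filter. Above the floor in roots alone were 1873 probe sets, of which 34 changed there and 23 also had an organ difference, 7 up and 16 down. Above the floor in shoots alone were 1870, of which 725 changed there and 285 had an organ difference, 91 up and 194 down. Of all 22746 probe sets in the fit without the filter, 87 passed in roots, 4514 passed in shoots and 1103 had an organ difference. In these sets the other organ gave little signal, so the organ difference follows largely from the change in the 1 organ. Control plants lay below the floor in 3 of the 7 root rises and 46 of the 91 shoot rises, which passed through the starved arrays.

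Examples were chosen by size after these values were seen. AT3G12900 had signals of 948.4, 939.9 and 1007.3 in starved roots, against 131.7, 102.8 and 181.6 in control roots, while its shoot signals stayed at 31.3 or less. AT1G14960 had 111.8, 72.4 and 66.8 in starved roots, against 304.2, 230.5 and 285.4 in control roots. Starved and control roots stood apart in both genes, with log2 changes in roots of 2.70 (adjusted p = 0.000492 in limma) and -1.56 (adjusted p = 0.00717). UGT72E3, a glucosyltransferase that acts on lignin precursors, fell by 0.93 on the log2 scale in roots (adjusted p = 0.0133).

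On the shoot side AMY1, an alpha-amylase that degrades starch, had 1197.1, 577.2 and 701.6 in starved shoots, against 34.0, 26.8 and 27 in control shoots. SAG29, a sucrose exporter of the SWEET family known from ageing leaves, had 278.1, 449.3 and 252.7 in starved shoots, against 9.9, 6.8 and 5.6 in control shoots. CHL, a lipocalin of the chloroplast, was lower, at 79.3, 68.8 and 97.2 in starved shoots, against 459.0, 387.4 and 377.6 in control shoots. Starved and control shoots did not overlap in any of these 3 genes, and on the root arrays the signals of AMY1, SAG29 and CHL lay at 45.3 or less. The organ differences were -4.01, -3.39 and 2.13, with adjusted p-values of 0.000528, 0.00202 and 0.0274 in limma. The call of CHL was lost without starved root replicate 1 or 2, starved shoot replicate 1 or 2, or control shoot replicate 1 or 3. Levels under the floor depend on the 16 added before the logarithm, so these sizes are not exact.

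Among genes expressed in both organs, the shoot-only rises were led by CML41, a calmodulin-like calcium sensor known from the closure of plasmodesmata during defence. Its signal was 45.0, 35.1 and 41.3 in starved roots, against 24.8, 36.5 and 22.8 in control roots. It was 1186.2, 1298.9 and 880.2 in starved shoots, against 29.8, 59.5 and 28.1 in control shoots. The shoot groups were far apart and the root groups overlapped. The log2 change was 0.37 in roots (95% interval -0.10 to 0.84) and 4.39 in shoots, with an organ difference of -4.03 (SE 0.309, adjusted p = 1.44e-05 in limma), the largest in size of all 11774. CML41 lay below the floor in control roots. Its rank did not hold in every fit: over the other fits its difference lay between -4.335 and -3.3347. That of SAL2, described below, lay between -4.4341 and -2.4686. In caesium-treated shoots its signal was 37.8, 105.2 and 86.8.

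AT4G18280 had signals of 1886.4, 1384.2 and 1221.8 in starved shoots, against 76.3, 56.0 and 57.6 in control shoots. On root arrays it stayed between 27 and 38.1 in starved roots, against 22.7 to 28.8 in control roots, and its organ difference was -3.98 (adjusted p = 4.44e-06 in limma). Its control roots also lay below the floor. SAL2, related to the SAL1 phosphatase that degrades a stress signal nucleotide, was well above the floor in roots, where its signal was 98.6, 87.3 and 98.1 in starved roots, against 106.2, 90.4 and 78.6 in control roots. In shoots it was 618.3, 324.5 and 391.7 in starved plants, against 19.2, 51.6 and 5.6 in controls. The control shoots lay under the floor, and the organ difference was -3.54 (SE 0.458, adjusted p = 0.000809).

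AT1G55210 and AT5G52390 were the remaining 2 of the 5 shoot-only rises with a gene name that were picked by size of organ difference. AT1G55210 reached 1965.1, 1770.2 and 1346.4 in starved shoots, against 160.8, 194.4 and 203.0 in control shoots. In roots it was 206.2, 266.7 and 178.5 in starved plants, against 314.5, 273.2 and 293.6 in controls, so the groups stood apart in the other direction there. That root change, -0.43, had an adjusted p of 0.336, and the organ difference was -3.50 (SE 0.257, adjusted p = 1.23e-05 in limma). AT5G52390 had 677.5, 287.1 and 457.2 in starved shoots, against 19.0, 45.4 and 44.2 in control shoots, with overlapping root groups and an organ difference of -3.16 (adjusted p = 0.00273).

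The shoot-only falls were smaller in size. EXPA8, an expansin that loosens cell walls during growth, had 256.6, 310.8 and 544.5 in starved shoots, against 1077.2, 849.4 and 1059.6 in control shoots. In roots it was low, at 51.1, 27.2 and 52.5 in starved plants and 36.2, 18.9 and 36.1 in controls. The shoot groups stood apart, the root groups overlapped, and the organ difference was 1.8 (SE 0.376, adjusted p = 0.0147 in limma). AT5G44020 was strongly expressed in both organs, with 1030.1, 1628.2 and 1260.0 in starved roots, against 924.3, 1325.2 and 1101.2 in control roots. In shoots it was 245.7, 535.8 and 514.5 in starved plants, against 1010.2, 1772.8 and 1242.6 in controls. Its root change was 0.21 and its shoot change -1.64, with an organ difference of 1.85 (SE 0.406, adjusted p = 0.0182).

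AT4G23820, AT5G12050 and AT5G02540 fell to means of 153.4, 73.8 and 42.0 in starved shoots, against 808.8, 440.9 and 157.7 in control shoots. In starved roots their means were 40.8, 46.3 and 32.0, against 55.7, 61.9 and 25.7 in control roots. Starved and control arrays were apart in shoots for all 3, and in roots for AT5G12050, whose root change of -0.32 had an adjusted p of 0.596. The organ differences were 2.05, 1.96 and 1.79, with adjusted p-values of 0.00505, 0.00518 and 0.00193 in limma. AT5G02540 lay below the floor in control roots.

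**Figure D3:**
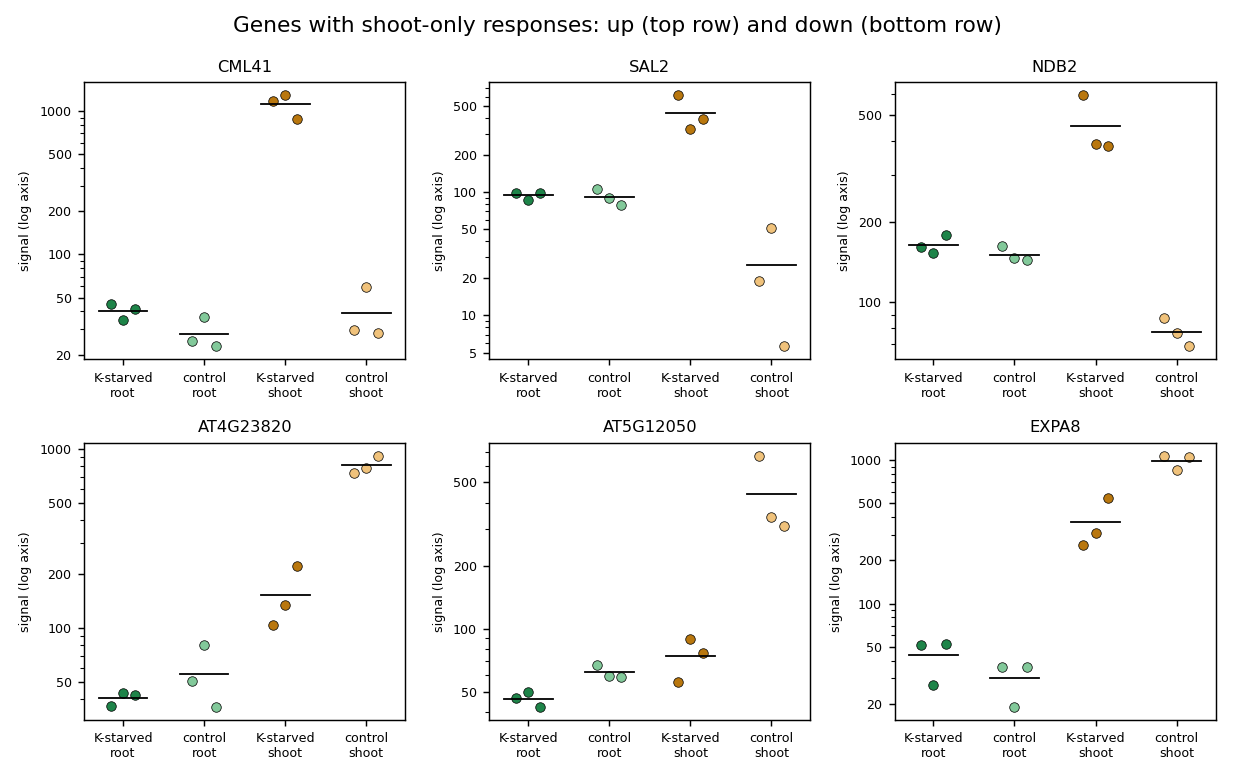
Signal on each array (points, logarithmic axis) and group mean (bars) of 3 genes with shoot-only rises (CML41, SAL2, NDB2) and 3 with shoot-only falls (AT4G23820, AT5G12050, EXPA8). The groups are potassium-starved roots, control roots, potassium-starved shoots and control shoots; starved and control arrays are apart in shoots for all 6 and overlap in roots for 5, AT5G12050 being the exception.

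The 2 shoot-only classes differed in where the genes were expressed before starvation, as a description of values that also entered the classes. Of the 353 rises, 273 (77.3%) had a lower mean in control shoots than in control roots, against 61% of all probe sets. Their median signal was 136 in starved roots, 146 in control roots, 277 in starved shoots and 82.7 in control shoots. Of the 298 falls, 68 (22.8%) had the lower mean in control shoots, and their median was 97.3 in starved roots, 87.8 in control roots, 101 in starved shoots and 242 in control shoots. Among the falls the median levels of the 2 organs lay closer in starved than in control plants. Among the rises the order turned: shoots had the higher median in starved plants, and roots in control plants. The rises were larger: 64 of 353 were 4-fold or more in shoots, against 3 of 298 falls. The shoot-only count of 651 was 333 without starved root replicate 1, 231 without starved root replicate 3, between 341 and 429 without any 1 of the control roots, 376 without control shoot replicate 1 and 354 without control shoot replicate 3.

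In a few genes both organs answered in the same direction by unequal amounts. AT4G19200, SRC2 and AT2G28710 rose in both and more in shoots. SRC2, named after a cold-induced gene of soybean, had 629.5, 613.6 and 682.1 in starved roots, against 296.0, 322.1 and 330.2 in control roots, and 2358.8, 2193.4 and 1800.9 in starved shoots, against 338.2, 480.6 and 335.8 in control shoots. The groups were apart in both organs, with log2 changes of 0.99 in roots and 2.42 in shoots and an organ difference of -1.44 (adjusted p = 0.00387 in limma). Of AT4G19200 and AT2G28710 the organ differences were -2.14 and -1.29 (adjusted p = 0.00254 and 0.0101). The unnamed probe set 254743_at was the 1 case that rose more in roots, with 600.8, 402.1 and 518.5 in starved roots, against 98.6, 44.1 and 39.0 in control roots, and 128.0, 71.7 and 53.3 in starved shoots, against 29.7, 26.1 and 28.9 in control shoots. Its call was lost without starved root replicate 1 or 3, control root replicate 2 or 3, starved shoot replicate 2, or control shoot replicate 1 or 3. These were named after their values were seen.

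A looser view of opposite answers took probe sets with an organ difference call that passed in shoots and had an unadjusted p under 0.05 in roots with the opposite sign. It held 84 probe sets, 45 down in roots and up in shoots and 39 up in roots and down in shoots, and 42 had a gene name. They were 2.31% of the 3635 probe sets that passed in shoots, against 613 (16.9%) with the same sign in roots at that p. At an unadjusted threshold this is a description, and its examples were chosen after their values were seen. The looser set overlaps the shoot-only classes, since the root change need not pass after adjustment. AT1G72240 and AT2G44210, given below, are in both. So are AT1G55210, AT2G39210, UGT88A1 and LHCB4.1, among others, with unadjusted root p-values of 0.0348, 0.0176, 0.0381 and 0.0127 in limma. XTH19, an enzyme that cuts and rejoins wall xyloglucan, had 79.5, 40.8 and 49.5 in starved roots, against 153.9, 136.2 and 104.8 in control roots, and 118.4, 149.5 and 225.8 in starved shoots, against 25.5, 29.6 and 41.9 in control shoots. Its groups were apart in both organs. The log2 change was -1.05 in roots (adjusted p = 0.0943 in limma) and 1.87 in shoots (adjusted p = 0.000128), with an organ difference of -2.92 (SE 0.344, adjusted p = 0.000407).

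AT5G37540 ran the same way, with 58.9, 76.5 and 66.8 in starved roots, against 95.1, 149.1 and 94.9 in control roots, and 174.8, 119.7 and 284.0 in starved shoots, against 17.5, 21.2 and 25.1 in control shoots, which lay below the floor. AT1G72240 and AT5G01740 had organ differences of -3.0 and -2.25 (adjusted p = 0.000141 and 0.0201 in limma). In the other direction AT3G11930, a gene expressed at similar levels in both control organs, had 1265.4, 1036.6 and 1025.9 in starved roots, against 735.8, 585.0 and 590.1 in control roots. In shoots it had 292.9, 306.0 and 344.1 in starved plants, against 625.4, 717.7 and 551.0 in controls. It was apart in both organs, with log2 changes of 0.79 in roots (adjusted p = 0.0671) and -0.97 in shoots (adjusted p = 0.000728) and an organ difference of 1.75 (adjusted p = 0.000778). AT2G44210 had an organ difference of 1.72 (adjusted p = 0.00224).

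The nodulin-like major facilitators are membrane proteins of a plant transporter family, listed here by locus from general knowledge. The list was added or corrected after results of these data were seen, so its share of calls is a description. Of 17 listed, 8 were tested, and 4 had an organ difference, 3 higher and 1 lower in roots (50%, against 6.74% of all). AT2G16660 had 224.7, 181.0 and 224.0 in starved roots, against 75.6, 109.6 and 101.5 in control roots, and 122.9, 122.0 and 126.8 in starved shoots, against 680.1, 603.3 and 308.4 in control shoots. The arrays were apart and ran opposite ways in the 2 organs, with an organ difference of 2.92 (SE 0.338, adjusted p = 0.000355 in limma). The root change of 1.02 had an adjusted p of 0.0953. In caesium-treated plants the signals were 114.3, 101.9 and 83.3 in roots and 534.5, 870.3 and 542.4 in shoots.

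AT4G34950 had a similar form, with 204.4, 135.7 and 192.4 in starved roots, against 44.2, 84.4 and 110.7 in control roots, and 590.2, 474.2 and 539.5 in starved shoots, against 1202.9, 1044.0 and 732.0 in control shoots. Its organ difference was 1.91 (adjusted p = 0.00937 in limma). AT2G39210 ran the other way, with 356.3, 231.6 and 305.4 in starved roots, against 526.2, 413.4 and 371.1 in control roots, and 668.7, 495.4 and 616.6 in starved shoots, against 235.1, 203.9 and 164.6 in control shoots. Its organ difference was -2.03 (adjusted p = 0.00139). AT5G14120 had a log2 change of 0.06 in roots and -1.58 in shoots, an organ difference of 1.63 (adjusted p = 0.00218). Every fit that left out 1 array gave 3 calls higher and 1 lower in roots.

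Cytosolic ribosomal proteins, the protein part of the ribosomes that serve the cell's main protein synthesis, had mostly negative organ differences, few of which passed. Of 220 listed by locus from general knowledge, 128 had a named probe set and 116 were tested. This list too was added or corrected after results were seen, so its shares are a description. The organ difference was negative in 113 of 116, against 5144 of all 11774 probe sets. Its median was -0.43, against 0.08 over all probe sets. The median log2 change was -0.26 in roots and 0.21 in shoots, against -0.01 and -0.09 over all probe sets. Of the 116, 13 (11.2%, against 3.77% of all) passed as lower in roots and 0 as higher (2.97% of all). Within shoots 20 (17.2%, against 13.8% of all) passed as up and 1 as down, and within roots 0 passed (0.28% of all). The sign of the median held without each array in turn, where it lay between -0.54 and -0.35. The count of 13 was 4 without starved root replicate 1 or 3, control root replicate 1 or control shoot replicate 1, 6 without starved shoot replicate 2 or control shoot replicate 3, and 8 without control root replicate 2 or 3. With the scanner background as a term it was 4, with a median of -0.56.

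AT3G06680 had the largest difference of the list. Its signal was 290.1, 253.8 and 248.5 in starved roots, against 548.5, 410.6 and 455.0 in control roots, and 832.8, 890.7 and 924.5 in starved shoots, against 395.7, 430.9 and 543.8 in control shoots. The arrays were apart in both organs, in opposite directions. The log2 change was -0.79 in roots (adjusted p = 0.0671 in limma) and 0.94 in shoots (adjusted p = 0.00092), and the organ difference -1.73 (SE 0.227, adjusted p = 0.000892). AT2G45710 and AT3G04230 differed through the shoots, with organ differences of -1.29 (adjusted p = 0.014) and -1.32 (adjusted p = 0.0266). The call of AT3G04230 held in 5 of the 12 fits that each left out 1 array, those without starved root replicate 2, control root replicate 2 or 3, starved shoot replicate 3 or control shoot replicate 2.

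Plastid-encoded genes, which supply core subunits of the photosystems, the plastid ATP synthase and the NDH complex, had mostly positive organ differences. Of 55 tested, 54 had a positive difference, against 6630 of all 11774 probe sets. The median difference was 0.72, against 0.08 over all probe sets. The list was added or corrected after results were seen, so its shares are a description. The median log2 change was 0.25 in roots and -0.54 in shoots, against -0.01 and -0.09 over all probe sets. The root median was 0.07 without starved root replicate 2, 0.04 and 0.55 when control root replicate 2 or 3 was left out, and -0.02 with array weights, so roots showed no stable direction. Higher in roots by the test were 7 (12.7%, against 2.97% of all), and 0 were lower. Within shoots 16 (29.1%, against 17.1% of all) passed as down, and within roots 0 passed (0.28% of all). Arrays were labelled from an oligo-dT primer, and plastid transcripts carry few poly(A) tails, so their signals depend on priming. The mean log2 level of the list was 7.55, 7.69 and 7.42 on starved root arrays, against 7.30, 7.02 and 7.86 on control root arrays, which overlapped. On shoot arrays it was 9.47, 9.04 and 9.48 in starved plants, against 10.26, 9.59 and 10.14 in controls, which were apart. The summed green-tissue markers were also lower in starved than in control shoots, as given above, and their part in this result was not tested. The count of 7 was 3 without control shoot replicate 1, 13 without control shoot replicate 2, and 1 with the scanner background as a term.

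psaA, a reaction centre protein of photosystem I, had 275.1, 133.5 and 582.3 in starved shoots, against 1800.5, 1155.3 and 1188.1 in control shoots. In roots it had 87.6, 65.5 and 68.0 in starved plants, against 20.0, 64.3 and 81.6 in controls. The shoot groups were apart, the root groups overlapped, and the organ difference was 2.65 (SE 0.604, adjusted p = 0.021 in limma), with an adjusted p of 0.0538 without control shoot replicate 1. atpF of the ATP synthase and ndhA of the NDH complex had organ differences of 1.96 (adjusted p = 0.0188) and 1.77 (adjusted p = 0.0145). Nuclear photosynthesis genes had 3 of 29 listed tested, of which 33.3% passed, against 6.74% of all. LHCB4.1, an antenna protein of photosystem II, passed with a difference of 1.03 (adjusted p = 0.0255), from 0.50 in roots and -0.53 in shoots. Its call was lost without starved root replicate 2, control root replicate 1 or 2, or control shoot replicate 3, and with the scanner background as a term. Mitochondrion-encoded genes, with 11 tested, had a median change of 0.36 in roots and 0.43 in shoots, and 0 organ difference calls. At an unadjusted p under 0.05 the organ difference took 2800 of the 11774 probe sets.

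**Figure D4:**
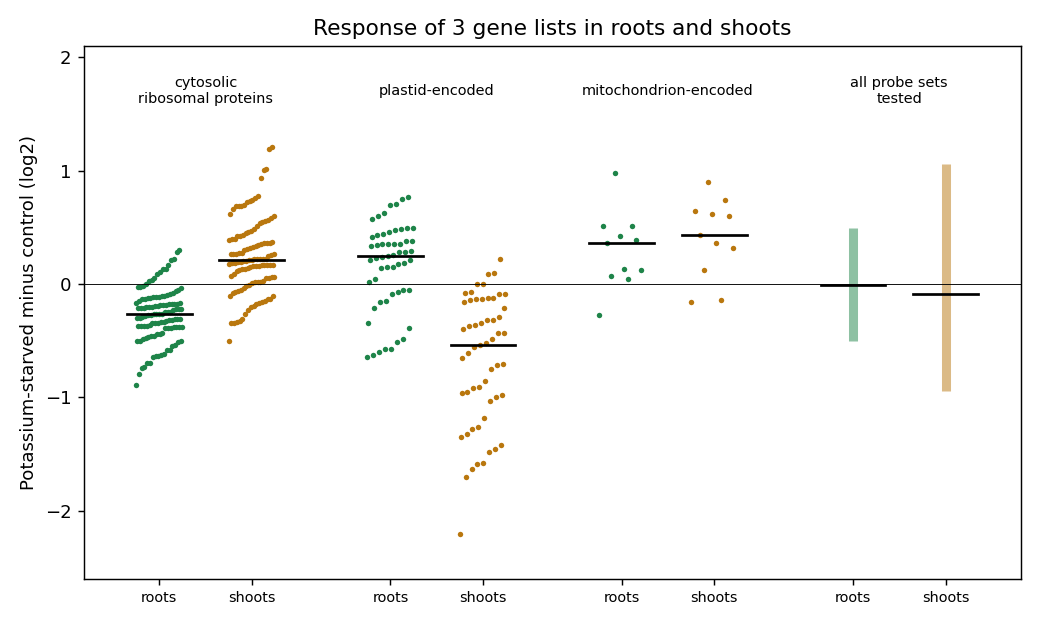
Log2 change under potassium starvation in roots and shoots for each tested gene (points) of 3 lists, with medians (black lines), and for all probe sets the median and the central 90% (vertical bars). The medians are -0.26 in roots and 0.21 in shoots for cytosolic ribosomal proteins, 0.25 and -0.54 for plastid-encoded genes, and 0.36 and 0.43 for mitochondrion-encoded genes.

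Stress-related lists had few tested members, and their called members passed in shoots. Of all probe sets 6.74% had an organ difference. The share was 33.3% for calmodulin-like and for oxidative stress genes, and 20% for WRKY factors. It was 10% for autophagy genes and for ubiquitin-conjugating enzymes. In the senescence and peroxidase lists, with 3 tested each, it was 33.3%, and in the coumarin list, with 2, it was 50%. Of 6 calmodulin-like genes, CML41 and CML38 passed as lower in roots. CML38, a calcium sensor known from low oxygen, had 244.5, 255.5 and 96.3 in starved shoots, against 24.6, 32.9 and 11.9 in control shoots, with overlapping root groups of 53.3, 54.1 and 72.7 in starved and 33.4, 66.3 and 54.4 in control plants. Its organ difference was -2.19 (adjusted p = 0.0125 in limma), a size that is not exact because control shoots lay below the floor. It ranged from -2.77 to -1.42 over the other fits. Of 6 oxidative stress genes, NDB2, which oxidises NAD(P)H on the outer face of the inner mitochondrial membrane, had 161.1, 153.2 and 178.8 in starved roots, against 161.8, 146.3 and 143.8 in control roots. In shoots it had 595.7, 389.1 and 384.5 in starved plants, against 87.4, 76.6 and 68.5 in controls. It stood apart in shoots, and the organ difference was -2.20 (SE 0.246, adjusted p = 0.00033). MSRB6, a methionine sulfoxide reductase, went the other way, with a shoot change of -1.74 and a difference of 1.67 (adjusted p = 0.0222), a call lost without starved root replicate 3, control root replicate 1 or control root replicate 2.

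WRKY53, a regulator of leaf ageing, passed among 5 WRKY factors and 3 senescence genes, with changes of -0.63 in roots (adjusted p = 0.307) and 1.26 in shoots (adjusted p = 0.00275) and an organ difference of -1.90 (adjusted p = 0.00937 in limma), a call lost with the scanner background as a term. WRKY22, known from defence signalling, passed in both organs as up, by 1.25 in roots and 0.65 in shoots, without an organ difference (0.60, adjusted p = 0.152). AT3G13610, a hydroxylase of coumarin synthesis, passed among 2 genes of coumarin and iron, with a difference of -2.50 (adjusted p = 0.00139). Its changes were 0.95 in roots (adjusted p = 0.121), where the answer was unresolved, and 3.46 in shoots. BGLU42, the other gene of that list, had a difference of 1.06 (adjusted p = 0.0745). Autophagy genes, most of them ATG8 ubiquitin-like proteins of the autophagosome, had a median difference of -0.60 over 10 tested. ATG8D passed, with changes of 0.19 in roots and 1.37 in shoots and a difference of -1.19 (adjusted p = 0.0178), lost without starved root replicate 3 or with the scanner background as a term, while ATG8H had a difference of -1.17 (adjusted p = 0.0965). UBC27 passed among 10 ubiquitin-conjugating enzymes (-0.87, adjusted p = 0.0372) and kept its call in 3 of 12 fits that left out 1 array, those without starved root replicate 1, starved shoot replicate 3 or control shoot replicate 2. PRX52 passed among 3 peroxidases (-1.44, adjusted p = 0.0499) and kept its call in 2 of the 11 such fits in which it was tested, those without control root replicate 3 or starved shoot replicate 1. With a pseudocount of 1 or the scanner background as a term both calls were lost, and that of PRX52 also with a pseudocount of 64, no filter or median centring. LTI30, a dehydrin, had a shoot change of 2.99 (adjusted p = 0.000881) and a difference of -2.27 that missed the threshold (adjusted p = 0.077).

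Wall and secondary metabolism families held members of both signs. Of 8 expansins, EXLA1 and EXPA8 passed in opposite directions (25%, against 6.74% of all). EXLA1, an expansin-like protein, had 356.4, 388.4 and 138.6 in starved shoots, against 70.0, 75.7 and 58.1 in control shoots, with 50.0, 68.1 and 52.7 in starved roots, against 85.4, 91.3 and 54.0 in control roots. The shoot groups were apart, and the organ difference was -2.10 (adjusted p = 0.0116 in limma). Of 15 UDP-glycosyltransferases, which attach sugars to small molecules, 12 had a positive difference, against 6630 of all 11774 probe sets. Of the 15, 3 passed (20%, against 6.74% of all). UGT76B1, which glucosylates defence-related acids, had 586.2, 473.3 and 534.1 in starved roots, against 607.8, 484.0 and 590.7 in control roots. In shoots it had 129.0, 97.5 and 86.2 in starved plants, against 32.0, 18.2 and 4.2 in controls. It was apart in shoots with a difference of -1.96 (adjusted p = 0.00699). Control shoots lay below the floor, and the difference ranged from -2.88 to -1.11 over the other fits.

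UGT72E1, which acts on lignin precursors, had 793.9, 1067.0 and 934.6 in starved roots, against 227.6, 422.6 and 475.6 in control roots. The root groups were apart and the shoot groups overlapped. Neither organ passed by itself (adjusted p = 0.125 in roots and 0.197 in shoots), while the difference was 1.95 (adjusted p = 0.0339 in limma). The call was lost with no filter, median centring or the scanner background as a term. It passed in 5 of the 12 fits that each left out 1 array, those without control root replicate 2 or 3, starved shoot replicate 2 or 3 or control shoot replicate 3. UGT88A1 differed by 1.23 (adjusted p = 0.0182), a call lost without starved root replicate 3.

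Of 6 cytochromes P450, 3 of the CYP71B subfamily passed (50%, against 6.74% of all). CYP71B23 had a difference of -1.72 (adjusted p = 0.00698 in limma), with a mean of 261.5 in starved shoots, against 97.9 in control shoots, and of 133.8 in starved roots, against 190.4 in control roots. CYP71B34 and CYP71B29 had differences of 1.12 (adjusted p = 0.0256) and 0.92 (adjusted p = 0.0415), and both were lower in starved than in control shoots. CYP71B34 passed in 6 of the 12 fits that each left out 1 array, and lost the call without starved root replicate 2 or 3, control root replicate 2 or 3, starved shoot replicate 1 or control shoot replicate 1. CYP71B29, below the floor in starved shoots, passed in 2, those without starved shoot replicate 1 or 3. Related probe sets can share signal, so calls within these families are less certain. The trichome birefringence-like, glutathione transferase and glucosinolate lists, with 11, 5 and 5 tested, had 0 organ difference calls.

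**Figure D5:**
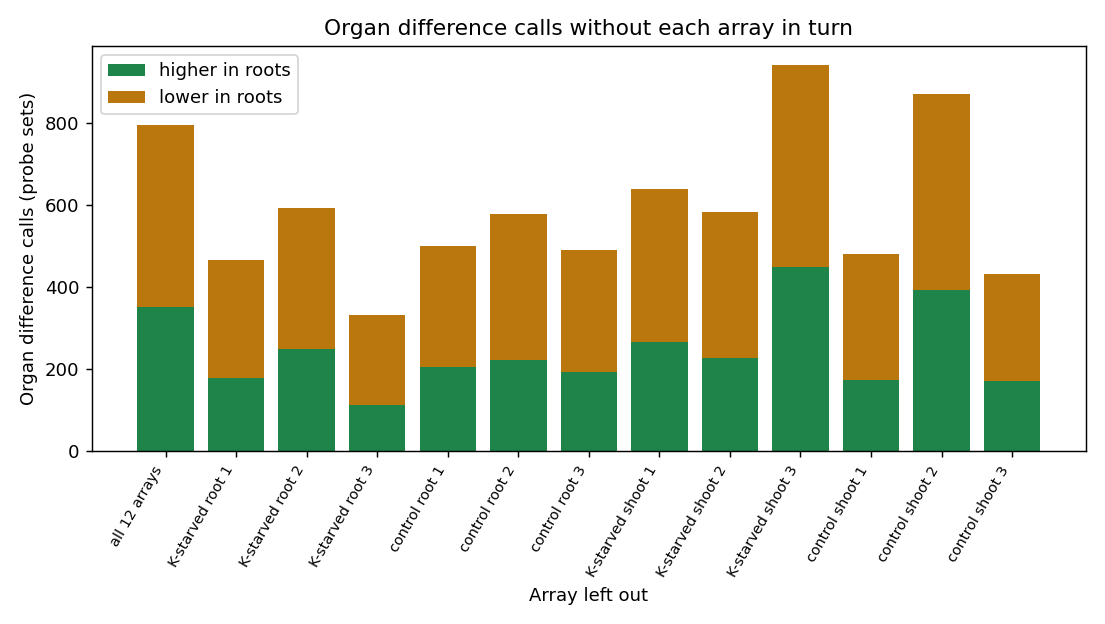
Number of probe sets with an organ difference in the fit of all 12 arrays and in fits that each left out 1 array, split by whether the change was higher (lower part of the bar) or lower in roots (upper part). The total is 794 with all arrays and lies between 331, without potassium-starved root replicate 3, and 940, without potassium-starved shoot replicate 3.

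The 44 genes and probe sets named by size of difference or as list members, or chosen after their values were seen as opposite or root-only answers, were refitted under each alternative. Of these, 34 passed in all fits without 1 array, 24 passed under all other processing choices as well, and 0 reversed under any. As the 44 were picked from these same data for a called difference, reversals were unlikely from the start. With the scanner background as a term in the fit 20 of the 44 lost their call, among them ATL8, AT5G38820, EXPA8, CML38, EXLA1 and UGT76B1. CML41, AT4G18280, SAL2, AT1G55210, NDB2, AT4G33666, AT2G16660 and AT3G06680 were among the 24 that kept it.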

How the data were processed

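Transcripts were measured on Affymetrix ATH1 arrays, 1 per sample, from total RNA labelled through an oligo-dT primer, per the labels' protocols. The deposited intensities are linear, and their values show that the authors scaled every array to a common trimmed mean. Which software made them is not stated in the labels. The number of arrays limits the precision.

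Controls were left out, and log2 of the intensity plus 16 was fitted with limma 3.58.1 in R 4.3.3 over 12 arrays, with 1 mean per group and no covariate. Probe sets entered where the mean of each organ lay above its 40th percentile. The p-values are two-sided and, unless called unadjusted, adjusted by the Benjamini-Hochberg method, with a threshold of 0.05. The adjustment ran over the 11774 probe sets tested in the main fit. For genes expressed in 1 organ it ran over all 22746 of the fit without the filter. The pipeline was tested on simulated data. Log2 changes from groups under the floor depend on the 16 added.

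Of 22746 probe sets, 13513 matched 1 gene, 503 several and 8730 are not listed in the annotation used here (RefSeq TAIR10.1 for symbols), which left 6350 of the tested ones named. Named genes were, per class, the 5 largest organ differences whose starved and control arrays did not overlap in each organ that passed, then up to 3 members of each list with at least 2 calls. Genes with several probe sets entered lists with the one of highest mean signal. Members and lists were chosen with earlier results of these data known. Of 36 lists, those of ribosomal proteins, nodulin-like facilitators and organelle genes were added or corrected after results were seen. Of these lists, 9 had 0 tested members: potassium transport, low-potassium signalling, root hairs, jasmonate, NAC factors, ABC transporters, aquaporins, extensins and heat shock proteins. The lists of ethylene, sugar and starch, auxin, polyamines, cyclins and histones, and abscisic acid genes had 1 to 4 tested members and 0 calls. Promoter sequences were not analysed here.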

Additional observations from a re-analysis of the deposited data

Results flagged for a closer look

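The 44 genes and probe sets below drew attention for the same reason: the response to starvation differed between roots and shoots by a direct test of that difference in limma. Values below are log2 differences, starved minus control in roots minus starved minus control in shoots. Groups of 3 arrays are too small to tell which array is outlying. How these calls fared without each array in turn is given above.

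Where both organs passed in opposite directions, the difference was 2.18 for AT4G33666 and 2.13 for 260287_at. For rises in roots alone it was 1.55 for AT5G62350, 1.48 for ASPGB1, 1.36 for ATL8, 1.16 for AT5G38820, 1.23 for 259544_at, 1.09 for 261211_at and 1.29 for 267238_at. Of these, ASPGB1 and 261211_at lost their call in 8 of the 12 fits that each left out 1 array. The shoot fall of 267238_at just missed the threshold (adjusted p = 0.0564 in limma).

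For rises led by shoots it was -4.03 for CML41, -3.98 for AT4G18280, -3.54 for SAL2, -3.50 for AT1G55210, -3.16 for AT5G52390, -2.20 for NDB2, -2.19 for CML38, -2.10 for EXLA1, -1.96 for UGT76B1 and -1.72 for CYP71B23. For falls led by shoots it was 2.05 for AT4G23820, 1.96 for AT5G12050, 1.85 for AT5G44020, 1.8 for EXPA8, 1.79 for AT5G02540, 1.67 for MSRB6, 1.23 for UGT88A1, 1.12 for CYP71B34 and 0.92 for CYP71B29. UGT72E1 differed by 1.95 with neither organ past the threshold.

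Among plastid-encoded genes it was 2.65 for psaA, 1.96 for atpF and 1.77 for ndhA, and among ribosomal proteins -1.73 for AT3G06680, -1.32 for AT3G04230 and -1.29 for AT2G45710. Among nodulin-like facilitators it was 2.92 for AT2G16660, -2.03 for AT2G39210 and 1.91 for AT4G34950. Genes with opposite signs that rest on an unadjusted p in roots had -3.02 (AT5G37540), -3.0 (AT1G72240), -2.92 (XTH19), -2.25 (AT5G01740), 1.75 (AT3G11930) and 1.72 (AT2G44210). Of these, AT1G72240 was also classed as a shoot-only rise and AT2G44210 as a shoot-only fall. Some genes listed before them met the same looser rule, among them AT1G55210, AT2G39210 and UGT88A1.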

How the results depend on the processing

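The count of 794 organ differences depended on the processing. The direction of 44 genes and probe sets did not reverse in any of 24 other fits. They were picked from these same data for a called difference and the fits share most or all arrays, so a reversal was unlikely from the start. Of 1054 results, 1 for each gene or probe set in each fit that tested it, 974 kept the call and 80 lost it. Leaving out 1 array at a time gave 331 to 940 organ differences, 112 to 448 higher and 219 to 492 lower in roots, 231 to 784 shoot-only, 1 to 9 root-only and 0 to 3 opposite. The scanner background as a covariate left 215 (80 higher, 135 lower), 121 shoot-only, 0 root-only and 0 opposite. Array weights gave 1662 (750 higher, 912 lower), 1235 shoot-only, 141 root-only and 50 opposite. A threshold of 0.01 left 179 (52 higher, 127 lower), 145 shoot-only, 1 root-only and 0 opposite. With a pseudocount of 1 there was 1 opposite call, and with 64 there were 17 root-only and 9 opposite. With no filter, 551 were higher in roots, 41 root-only and 7 opposite, and with a filter on the mean of all 12 arrays 596 were higher in roots and 23 root-only (12 up, 11 down). Quantile normalization gave 4 root-only calls. Fitting 18 arrays gave 570 higher in roots, 990 shoot-only, 13 root-only and 8 opposite. An interval bound of 0.58 left 282 shoot-only and 2 root-only calls. The cause of these changes was not tested.

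Same-numbered starved and control shoots deviated together (r = 0.301, 0.415 and 0.443), each best with its own number, while in roots r was 0.461, 0.0995 and -0.0513. Of 12 same-numbered pairs within and across organs, 8 had r above 0.1 and 8 correlated best with their own number, a hint of pairing that does not hold in every pair, so the fit over both organs was left without a block. Calls within shoots were 4424 with the block over both organs and 4487 with the block within each organ, against 3635, and calls within roots 117 and 258, against 33. With the replicate number as a block over both organs the counts were 1281 (607 higher, 674 lower), 1087 shoot-only, 16 root-only and 6 opposite. With the replicate block within each organ they were 1509 (745 higher, 764 lower), 1271 shoot-only, 36 root-only (27 up, 9 down) and 16 opposite (11 up and 5 down in roots). Signal near the floor, 3 arrays per group and the missing names of many probe sets limit what these counts can show.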
